A study of Mus musculus with 6 samples.

Results

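Transcripts of 10 genes that control the peroxidation of membrane phospholipids were followed in 6 RNA libraries of mouse peritoneal macrophages. The genes are Gpx4, Aifm2, Gch1, Dhodh, Vkorc1l1, Acsl4, Acsl3, Lpcat3, Mboat1 and Por. They were chosen by name for their place in this pathway, and all 10 were among the 15469 genes of the table. The cells were washed from the abdominal cavity of CAIA mice, a model the labels give only as an abbreviation, sorted as RELM-α+ cells and plated. The label KO marks 3 libraries of PU.1-deleted cells and the label WT 3 libraries of control cells of the same sort and model. PU.1 is the macrophage transcription factor encoded by Spi1. How PU.1 was deleted, the strain, age and sex of the mice, and whether replicates stand for separate animals or cultures, is not given in the sources used here. Any p-value therefore measures only the spread among these libraries, and that spread may be technical. The study's question is the role of PU.1 in ferroptosis, a cell death that needs iron.

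Ferroptosis is driven by peroxides of polyunsaturated fatty acids held in phospholipids. Acyl-CoA synthetases and lysophospholipid acyltransferases decide which fatty acids enter those phospholipids, oxidoreductases such as that encoded by Por supply electrons that help to start the peroxidation, and GPX4 reduces the lipid peroxides to alcohols with glutathione. Beside GPX4, radical-trapping systems built on coenzyme Q, tetrahydrobiopterin and vitamin K stop the chain reaction.

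GPX4 is a selenoprotein, and its active site is read from a UGA codon that would otherwise end the protein. The exon that carries this codon is shown because it sets Gpx4 apart from the other 9 genes. It is the exon at chr10:80054700-80054844 (GENCODE M21, GRCm38, plus strand), 145 bases long and wholly coding, the third of 7 in a Gpx4 transcript where the selenocysteine codon, in capitals, is codon 73.
Gpx4 exon 3: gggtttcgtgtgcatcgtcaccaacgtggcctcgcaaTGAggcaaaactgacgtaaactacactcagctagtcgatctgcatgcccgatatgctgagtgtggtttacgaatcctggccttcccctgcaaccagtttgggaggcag

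Because the comparison is one of PU.1, the 250 bases before the genes' RefSeq start sites were searched on both strands for GAGGAA, the core of the PU box to which PU.1 binds. RefSeq (GRCm38.p6) gave 12 start sites for 9 of the 10 genes, and some of them, those of Mboat1 and Lpcat3 included, are transcript starts that lie inside the gene range printed below. The letters were present at 2 of them, those of Mboat1 and Lpcat3, and at 23.3% of all 32851 promoter windows of the same length. The 2 stretches below run from 250 to 101 bases before that transcript start, at chr13:30136240-30136389 for Mboat1 and chr6:124662854-124663003 for Lpcat3, both on the plus strand. Capitals mark the match, which reads GAGGAA from 160 bases before this start of Mboat1 and its reverse complement from 140 bases before that of Lpcat3. A match of letters is a description and not a binding site.
Mboat1: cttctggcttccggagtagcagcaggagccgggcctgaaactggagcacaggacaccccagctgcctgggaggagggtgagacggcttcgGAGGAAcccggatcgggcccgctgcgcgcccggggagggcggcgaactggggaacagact
Lpcat3: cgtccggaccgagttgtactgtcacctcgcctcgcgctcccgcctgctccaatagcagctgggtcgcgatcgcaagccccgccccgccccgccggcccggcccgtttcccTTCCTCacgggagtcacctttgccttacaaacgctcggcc

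Some features of the libraries bear on every value below. The depth was 17280855 to 18632623 counts per library. KO replicate 1 stood apart from its group: across genes, its log2 CPM (counts scaled to library size, with TMM factors) correlated at 0.902 and 0.922 with KO replicates 2 and 3 but at 0.955 to 0.959 with the WT libraries. Results are therefore also given without it. Spi1 itself was at 294 ± 22.6 CPM in KO and 315.8 ± 29 CPM in WT (SD, n = 3 each; edgeR quasi-likelihood test, adjusted p = 0.561), so the gene count does not show the labelled deletion, and directions below are between the libraries labelled KO and those labelled WT. The Y-linked gene Ddx3y had 2, 0 and 0 counts in KO and 870, 853 and 1296 in WT, so the sex of the mice and the label cannot be told apart. The marker levels that follow are in CPM without TMM factors. All 8 macrophage markers examined were at 84.9 CPM or more in every library. Platelet and megakaryocyte markers summed to 17.2 to 57.5 CPM in KO and 57.6 to 102.9 CPM in WT, and fibroblast markers to 2.26 to 35.1 and 4.88 to 7.76 CPM. The part of either in the results was not tested. In bulk RNA, fewer cells with a transcript and less transcript per cell cannot be told apart.

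Per unit of transcript length, Gpx4 was the most abundant of the 10 transcripts and Mboat1 the least. Gpx4 averaged 872 TPM (a length-corrected share of all transcripts) over the 6 libraries, above 98.7% of the 11424 genes tested. Por followed at 338.2 TPM, above 96.6% of tested genes. Lpcat3 (33 TPM), Aifm2 (21.8), Acsl4 (19.4), Vkorc1l1 (13.8), Gch1 (12.9), Dhodh (5.8), Acsl3 (3.9) and Mboat1 (1.79 TPM) came next in that order. Every library kept Gpx4 above Por, Por above Lpcat3, and Lpcat3 above Aifm2, and the ranges of these neighbours over the 6 libraries did not overlap. The same held for Gch1 above Dhodh, Dhodh above Acsl3 and Acsl3 above Mboat1. In the middle of the order, from Aifm2 over Acsl4 and Vkorc1l1 to Gch1, the ranges of direct neighbours overlapped, and each was above the next in 4 of 6 libraries. Aifm2, at 17.5 to 26.04 TPM, nevertheless lay above the whole ranges of Vkorc1l1 (10.76 to 16.95 TPM) and Gch1 (10.67 to 14.96 TPM). In fold terms the widest range was that of Acsl4, from 5.42 to 33.7 TPM.

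**Figure D1:**
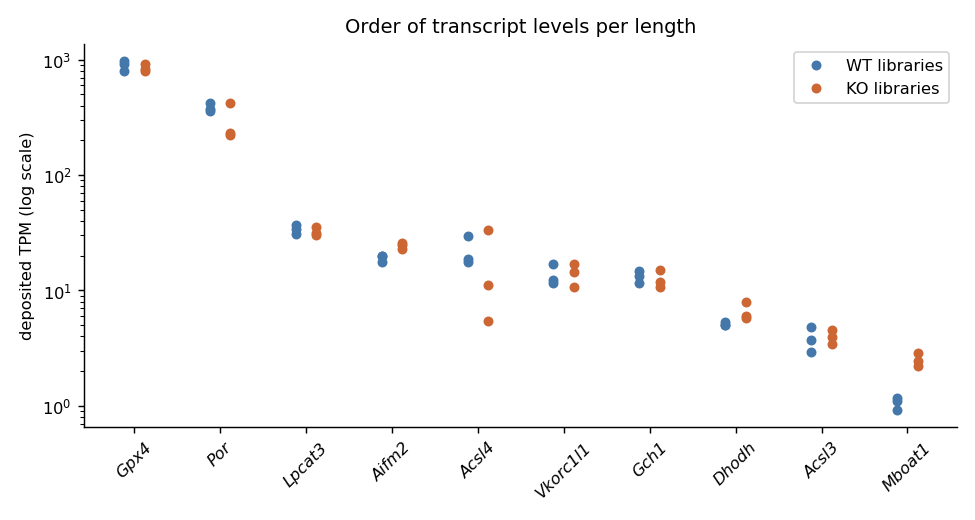
Deposited TPM of the 10 genes (log axis) in the 3 WT libraries (blue) and the 3 KO libraries (orange), ordered by the mean of 6. Gpx4 at 795.8 to 967.5 TPM and Por at 224.2 to 420.9 TPM lie far above the other 8, and Acsl4 has the widest spread on this axis.

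Between the labels, Mboat1 differed most among the 10 genes and was higher in every KO library, and none of the 10 passed the main test. EdgeR called 0 of them at an adjusted p under 0.05, where it called 3.32% of all 11424 tested genes (2.26% higher and 1.06% lower in KO). At an unadjusted p under 0.05 it gave 1, Mboat1, against 22.7% of all genes. DESeq2 called Mboat1 alone (10.8% of all genes were called), as did edgeR with counts corrected for GC content and length (6.38%) and limma on log2(TPM + 0.1) (9.0%), while limma-voom called 0 (2.93%). The KO mean was lower for 7 genes and higher for 3, with a median log2 difference of -0.15 against -0.01 over all genes. With upper-quartile factors the median was -0.08 against 0.05, and on the TPM scale it was -0.01 against 0.13, with 5 genes higher and 5 lower. The CPM groups did not overlap for 3 of the 10 genes, Mboat1 and Aifm2 higher (18.4% of all genes) and Lpcat3 lower (12.6%), a share near the 31.0% of all genes in either direction. In TPM they did not overlap for 3, Mboat1, Aifm2 and Dhodh, all higher (31.9% of all genes; 36.8% in either direction and 4.91% lower).

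KO replicates 2 and 3 lay together at the top or bottom of the 6 libraries for most of these genes, as for many others. They were both below the other 4 libraries for 5 of the 10 genes, Gpx4, Gch1, Acsl4, Lpcat3 and Por, where 30.0% of all genes were. They were both above the other 4 for 3, Aifm2, Dhodh and Mboat1, where 27.0% of all genes were. For Aifm2, Mboat1 and Lpcat3, KO replicate 1 also lay beyond all WT libraries, on the same side. Without KO replicate 1, edgeR called 3 of the 10 against 49.6% of the 11677 genes then tested, Mboat1 higher (23.6% of all genes) and Acsl4 and Por lower (26.0%). With the GC and length correction as well, it called 7 of the 10 against 53.2% of all genes. Mboat1, Acsl3 (0.55 on the log2 scale) and Vkorc1l1 (0.55) were then higher (24.0% of all genes), and Gpx4 (-0.22), Gch1 (-0.54), Lpcat3 (-0.49) and Por lower (29.2%). Leaving out any other single library gave 0 calls among the 10, where only 5 to 15 of the 11552 to 11729 genes tested were called.

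**Figure D2:**
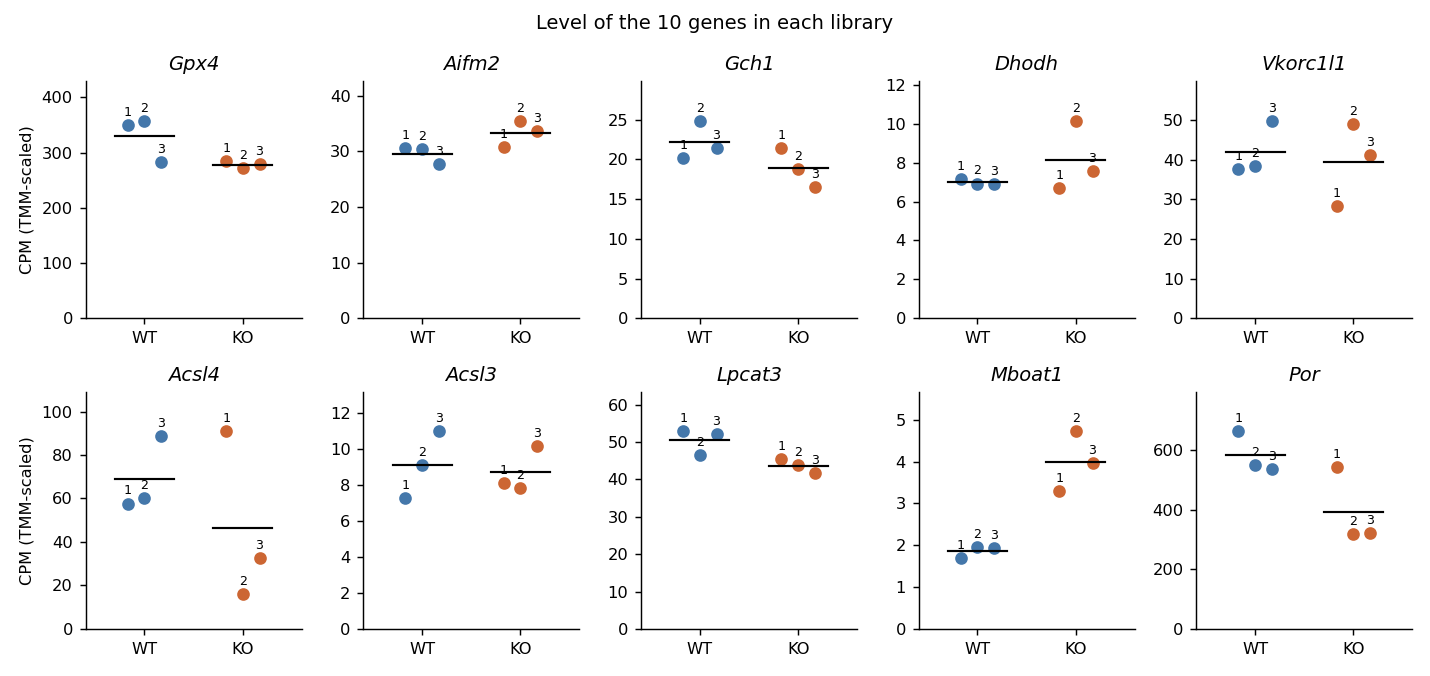
CPM on TMM-scaled library sizes (linear axes from 0) of the 10 genes in WT (blue) and KO (orange) libraries, numbered by replicate, with a bar at each group's mean. KO replicates 2 and 3 lie below the other 4 libraries for Gpx4, Gch1, Acsl4, Lpcat3 and Por and above them for Aifm2, Dhodh and Mboat1, and all 3 KO libraries of Mboat1 lie above WT.

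Gpx4 had a slightly lower mean in the libraries labelled KO, and edgeR did not call the difference. The gene (ID 625249) lies on the plus strand of chromosome 10, from 80047166 to 80056439 in GRCm38. KO libraries 1 to 3 had 284.7, 271.3 and 278.4 CPM of it, and WT libraries 1 to 3 had 349.6, 357.9 and 282.4 CPM. WT replicate 3 lay at the level of the KO libraries and the groups overlapped there, while the 3 KO libraries were within 1.05-fold of each other. The log2 difference was -0.25 (SE 0.112, 95% interval -0.52 to 0.03; edgeR adjusted p = 0.255). In CPM KO replicate 1 was close to the other KO libraries here, and without it the difference was again -0.25 (adjusted p = 0.102). With the GC and length correction edgeR gave -0.15 over 6 libraries (adjusted p = 0.274). With KO replicate 1 left out as well, it called Gpx4 lower (-0.22, adjusted p = 0.014), where it called 53.2% of all genes. In TPM the means were 846.5 ± 63 in KO and 897.4 ± 82.7 in WT. KO replicate 1, at 917 TPM, was there nearer to WT replicate 1 (918.55) than to KO replicates 2 and 3 (795.83 and 826.78).

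The radical-trapping genes showed small differences in both directions. Aifm2 (chromosome 10, 61715263 to 61739260, plus strand) encodes FSP1, the reductase that regenerates coenzyme Q and vitamin K at membranes. It was at 30.8, 35.5 and 33.7 CPM in KO and 30.6, 30.4 and 27.8 CPM in WT. All 3 KO libraries were above all 3 WT libraries, KO replicate 1 only slightly, and the log2 difference was 0.17 (SE 0.101, 95% interval -0.07 to 0.42; edgeR adjusted p = 0.341). In TPM the gap was wider, with 22.9, 24.6 and 26 in KO against 17.5, 19.9 and 19.7 in WT, a fold of 1.29 against 1.13 in CPM. The table lists 15 transcripts of Aifm2, and the number of counts per TPM, which follows the mean length assigned to a gene's transcripts, ranged over 1.19-fold between libraries for Aifm2. That is more than for 95.7% of 10149 genes, whose median was 1.01-fold. With counts corrected for GC content and length, the difference turned to -0.01 (adjusted p = 0.914). Aifm2 ends within the range of Macroh2a2, so reads at its end may be shared.

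Gch1 (chromosome 14, 47153895 to 47189413, minus strand) encodes GTP cyclohydrolase 1, the first enzyme of tetrahydrobiopterin synthesis. It was at 21.4, 18.7 and 16.6 CPM in KO and 20.2, 24.9 and 21.4 CPM in WT, so the groups overlapped and KO replicates 2 and 3 were the lowest. The log2 difference was -0.23 (SE 0.143, 95% interval -0.58 to 0.12; edgeR adjusted p = 0.369).

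Dhodh (chromosome 8, 109593244 to 109608699, minus strand) encodes the mitochondrial dihydroorotate dehydrogenase, which makes pyrimidines and reduces coenzyme Q in the inner membrane. It was at 6.71, 10.2 and 7.56 CPM in KO against a narrow 7.15, 6.93 and 6.91 CPM in WT. KO replicate 2 alone was well above the rest, and KO replicate 1 was the lowest of the 6. The log2 difference was 0.22 (SE 0.195, 95% interval -0.26 to 0.70; edgeR adjusted p = 0.503), and 0.01 without KO replicate 2 (adjusted p = 0.989). On the TPM scale the groups did not overlap, at 5.73, 7.89 and 5.95 in KO and 4.99, 4.98 and 5.28 in WT. The TPM scale raised KO against WT across genes, by a median of 0.13 on the log2 scale where the counts gave -0.01.

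Vkorc1l1 (chromosome 5, 129942109 to 129986692, plus strand) encodes a vitamin K epoxide reductase that yields the reduced, radical-trapping form of vitamin K. KO libraries 1 to 3 had 28.4, 49.1 and 41.1 CPM, and WT libraries 1 to 3 had 37.7, 38.5 and 49.9 CPM. The lowest library was KO replicate 1, the highest WT replicate 3, and KO replicate 2 was close to the latter. The log2 difference of -0.09 (SE 0.229, 95% interval -0.65 to 0.47; edgeR adjusted p = 0.822) changed sign without KO replicate 1 (0.12), without WT replicate 3 (0.05), on the TPM scale (0.03) and with the GC and length correction (0.24).

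Of the genes that place fatty acids into phospholipids, Acsl4 was the most variable and Mboat1 the most different between the labels. Acsl4 (gene ID 50790, chromosome X, 142317993 to 142390802, minus strand) encodes the synthetase that activates arachidonic and adrenic acid, the substrates of ferroptotic peroxidation. It was at 90.9, 16.1 and 32.5 CPM in KO and 57.7, 60.1 and 88.9 CPM in WT. KO replicate 1 was the highest of all 6 libraries and KO replicates 2 and 3 were the lowest, a 5.66-fold range within the KO group against 1.54-fold within WT. The log2 difference over 6 libraries was -0.57 with a wide interval of -2.12 to 0.98 (SE 0.628; edgeR adjusted p = 0.589). Without KO replicate 1 it was -1.49 (adjusted p = 0.0119).

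The libraries highest in Acsl4, KO replicate 1 and WT replicate 3, were also the 2 with the smallest deposited FPKM totals, 596455 and 596559 against 644692 to 661551 in the other 4. The part of this total in the result was not tested. Among all tested genes, 19.5% were likewise highest in these 2 libraries, and of the 10 genes Acsl4 alone was. With the GC and length correction the difference of Acsl4 was -0.06 (adjusted p = 0.864), and -0.23 when KO replicate 1 was left out as well (adjusted p = 0.25). Acsl4 lies on the X chromosome. The 366 tested genes there had a median log2 difference of -0.12, against -0.01 over all tested genes. Of them 2.46% were called, against 3.32% of all tested genes. For Acsl4, a part played by the sex of the mice cannot be told apart from the label.

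Acsl3 is the paralog that activates monounsaturated fatty acids such as oleate. Its CPM ranged over 1.29-fold within KO, against 5.66-fold for Acsl4, and over 1.51-fold within WT, against a similar 1.54-fold. It was at 8.09, 7.86 and 10.2 CPM in KO and 7.27, 9.13 and 11 CPM in WT, fully overlapping (log2 -0.07, SE 0.207, 95% interval -0.58 to 0.44; edgeR adjusted p = 0.849). Its counts were not whole numbers in any library, so they are estimates. How reads were divided was not tested. Utp14b lies within its range, as does a predicted lncRNA (chromosome 1, 78657825 to 78707743 in RefSeq; the table places the gene partly on a scaffold), so its level is uncertain. Within libraries the TPM of Acsl4 exceeded that of Acsl3 by 8.6, 1.57 and 2.43 times in KO and by 6.03, 5.03 and 6.16 times in WT. KO replicate 1 thus had the largest excess of Acsl4 over Acsl3 and KO replicates 2 and 3 the smallest. Set against Gpx4, Acsl4 was at 0.0368, 0.00681 and 0.0135 of its TPM in KO and at 0.019, 0.0194 and 0.0367 in WT, in the same order of KO libraries. The mean log2 ratio was -6.06 ± 1.22 in KO and -5.39 ± 0.54 in WT, overlapping.

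Lpcat3 (chromosome 6, 124663094 to 124704716, plus strand) encodes the acyltransferase that inserts polyunsaturated chains into phosphatidylcholine and phosphatidylethanolamine. It was at 45.4, 44 and 41.7 CPM in KO and 52.9, 46.6 and 52.1 CPM in WT. All 3 KO libraries were below all 3 WT libraries by a small margin. The log2 difference was -0.21 (SE 0.093, 95% interval -0.44 to 0.02; edgeR adjusted p = 0.247). On the TPM scale the groups overlapped, at 35.6, 31.3 and 30.1 in KO and 33.9, 30.7 and 36.6 in WT. The end of Lpcat3 overlaps that of Emg1.

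Mboat1 (gene ID 218121, chromosome 13, 30136451 to 30246694, plus strand) encodes an acyltransferase that puts monounsaturated chains into phospholipids and is known as a suppressor of ferroptosis. It was at 3.3, 4.72 and 3.96 CPM in KO and 1.69, 1.96 and 1.92 CPM in WT, from 60, 92 and 76 counts and from 29, 34 and 32 counts. Every KO library was above every WT library, KO replicate 1 included, and the mean was 2.15 times that of WT. On the log2 scale this was 1.10 (SE 0.228, 95% interval 0.55 to 1.66), with an unadjusted p of 0.00282 and an adjusted p of 0.0606 by edgeR, just outside the threshold of 0.05. The call depended on the processing and on the libraries. Mboat1 was called by DESeq2 (adjusted p = 0.00768) and by limma on log2(TPM + 0.1) (0.0365). EdgeR called it with the GC and length correction (0.0429), without KO replicate 1 (0.0017) and with both (0.001465). It was not called by limma-voom (0.0732), or by edgeR with RLE factors (0.0629), upper-quartile factors (0.0674), no filter (0.0826) or a replicate block (0.198). Nor was it called without any other single library (0.182 to 0.278), where only 5 to 15 of all genes were called. The log2 difference stayed between 0.94 and 1.24 in the 15 alternatives that gave one. The authors' deposited table, also from DESeq2 and so no separate evidence, gives it a log2 fold change of 1.10 and a q-value of 0.00951. Of the 10 genes Mboat1 alone has a q-value under 0.05 there. Predicted lncRNAs, a snRNA and a pseudogene lie within the long range of Mboat1 in RefSeq, so some of its reads may be shared with them, and the counting's strand setting is not known here. Its close relative Mboat2 had 10 counts over the 6 libraries and was not tested.

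Por (chromosome 5, 135653810 to 135735326, plus strand) encodes the cytochrome P450 oxidoreductase, which passes electrons from NADPH to P450 enzymes and promotes lipid peroxidation. It was at 542.5, 318 and 322.6 CPM in KO and 664, 551.6 and 537.3 CPM in WT. KO replicate 1 lay within the WT range and KO replicates 2 and 3 at 0.548 of the WT mean. The log2 difference was -0.57 (SE 0.24, 95% interval -1.16 to 0.02; edgeR adjusted p = 0.233) over 6 libraries and -0.85 without KO replicate 1 (adjusted p = 0.000524). Unlike that of Acsl4, the difference without KO replicate 1 was of similar size with the GC and length correction, -0.99 (adjusted p = 3.17e-05), and -0.63 over 6 libraries (0.189).

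**Figure D3:**
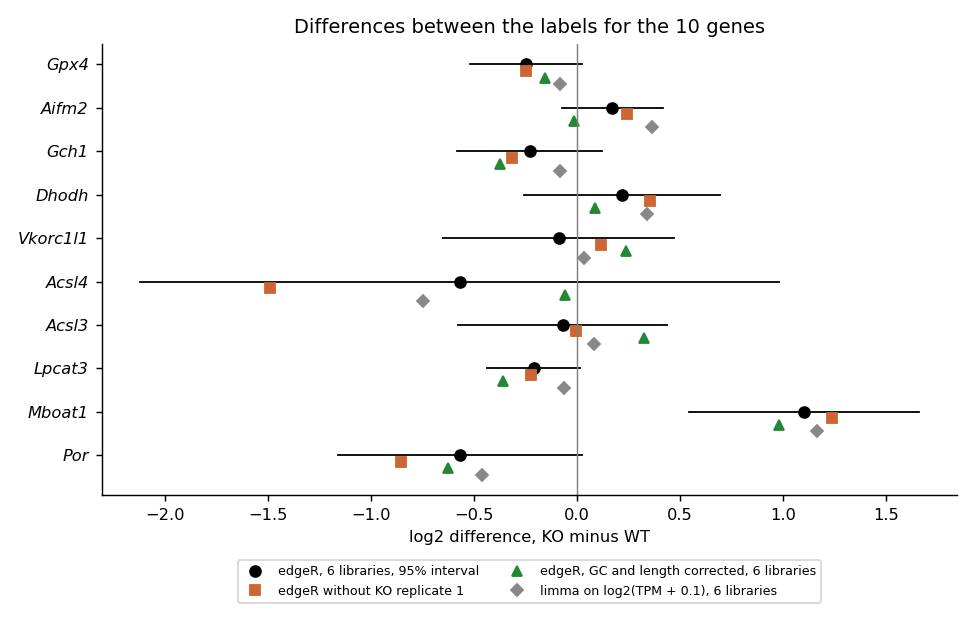
Log2 difference, KO minus WT, of the 10 genes by edgeR over 6 libraries with its 95% interval (black), by edgeR without KO replicate 1 (squares), with the GC and length correction (triangles) and by limma on log2(TPM + 0.1) (diamonds). Mboat1 alone has an interval that lies wholly above 0, at 0.55 to 1.66, and Acsl4 moves from -1.49 to -0.06 between settings.

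Among the neighbouring steps of these pathways, Fads2 and Alox5 rose in the libraries labelled KO. Of 103 other genes listed by pathway, 98 were in the table and 90 were tested, and edgeR called 2 higher and 0 lower, 2.22% against 3.32% of all genes. Their median log2 difference was -0.02. Fads2, the desaturase that begins the synthesis of long polyunsaturated fatty acids, was at 16, 9.4 and 7.97 CPM in KO and 3.02, 3.81 and 3.36 CPM in WT, so it rose 3.27-fold (edgeR adjusted p = 0.0464; 1.71 on the log2 scale, SE 0.306). Its KO libraries were all above WT, KO replicate 1 the highest. Fads2 was not called by limma-voom (0.0751), with the GC and length correction (0.0553), or without KO replicate 2 or 3 or WT replicate 1, 2 or 3 (0.0998 to 0.239). Alox5, the arachidonate 5-lipoxygenase, was at 24.5, 19.4 and 21.8 CPM in KO and 9.65, 5.31 and 5.29 CPM in WT. It rose 3.25-fold (adjusted p = 0.0396) and was likewise called without KO replicate 1 (0.00178) but not without any other single library (0.0567 to 0.239). Only 5 to 15 of all genes were called in the fits without a single library other than KO replicate 1.

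In the selenoprotein, glutathione and ether lipid lists edgeR called 0 genes, where it called 3.32% of all genes tested. Of 9 selenoprotein synthesis genes, with a median log2 difference of -0.04, the smallest p was that of Eefsec, the elongation factor that delivers selenocysteine (14.6 ± 1.33 against 10.8 ± 1.98 CPM, SD, n = 3 each; edgeR adjusted p = 0.208). Of 9 tested glutathione peroxidase and phospholipid repair genes the median was -0.18, and Mgst1, a microsomal glutathione transferase, was at 179.8, 100 and 112.3 CPM in KO and 252.2, 222.9 and 248.7 CPM in WT (adjusted p = 0.103, and 0.00902 by DESeq2). All KO libraries of Mgst1 were below WT. Without KO replicate 1, edgeR called 6 of these 9 genes lower and 0 higher. Over all 90 pathway genes it then called 21 higher and 24 lower, beside 23.6% and 26.0% of all genes, and most other lists were mixed, such as the acyltransferases (4 higher and 3 lower), the desaturases and elongases (4 and 2) and the coenzyme Q genes (3 and 1). Of 7 ether lipid genes the median was -0.17, with the smallest p for Pex3, a peroxisome assembly factor (9.37 ± 2.46 against 12.5 ± 0.51 CPM; adjusted p = 0.288).

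Around the radical-trapping genes edgeR again called 0 in each list, beside the same 3.32% of all genes. Coq8a, an atypical kinase of coenzyme Q synthesis, was at 5.83 ± 1.08 against 2.65 ± 1.07 CPM (adjusted p = 0.123) among 14 genes with a median log2 difference of 0.02. Coq10b, a coenzyme Q-binding protein named after its values were seen, differed in the other direction, at 11.8, 4.93 and 5.21 CPM in KO and 15.8, 16.3 and 21.3 CPM in WT. All its KO libraries were below WT. The edgeR adjusted p was 0.13 for Coq10b, which was called by DESeq2 (0.0164), with the GC and length correction (0.044) and without KO replicate 1 (0.000156). Coq8a was called by DESeq2 (0.0364) and without KO replicate 1 (0.00679), and not with the correction (0.12). The 5 tested tetrahydrobiopterin genes had a median of -0.06. Uck2, a pyrimidine salvage kinase, was at 21.4 ± 5.81 against 12.9 ± 2.68 CPM (adjusted p = 0.154), with KO replicate 1 the highest. The 7 tested pyrimidine genes had a median of 0.2, and the 8 tested genes of the vitamin K cycle and quinone reductases one of 0.01.

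Around the fatty acid genes, Lpcat2, an acyltransferase of phosphatidylcholine and platelet-activating factor, had the smallest p of the 11 tested acyltransferases. It was at 46.7, 78.5 and 77 CPM in KO and 34.4, 37.4 and 30.4 CPM in WT (fold 1.98, adjusted p = 0.0725 by edgeR and 0.0044 by DESeq2), with all KO libraries above WT. The 11 tested acyltransferases had a median log2 difference of 0.09. The 5 tested acyl-CoA synthetases and transporters beside Acsl3 and Acsl4 had a median of 0.03, and the smallest p was that of Slc27a1, a fatty acid transporter, at 143.1 ± 20 against 156.9 ± 7.14 CPM (adjusted p = 0.508). The 9 desaturases and elongases had a median of 0.29, and the 7 lipid oxidation enzymes one of 0.01. Alox12, the arachidonate 12-lipoxygenase of platelets and other cells, lay farthest from 0 in that list and is named after its values were seen. It was at 0.66, 0 and 0.261 CPM in KO and 4.13, 9.99 and 7.27 CPM in WT (edgeR adjusted p = 0.0609). Alox12 was called by DESeq2 (3.16e-06), by edgeR without KO replicate 1 (0.00146) or with the GC and length correction (0.0412), and by limma on TPM (0.0311). It was not called by limma-voom (0.0715). All KO libraries of Alox12 were below WT, as were the summed platelet and megakaryocyte markers given above, whose part in this was not tested.

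**Figure D4:**
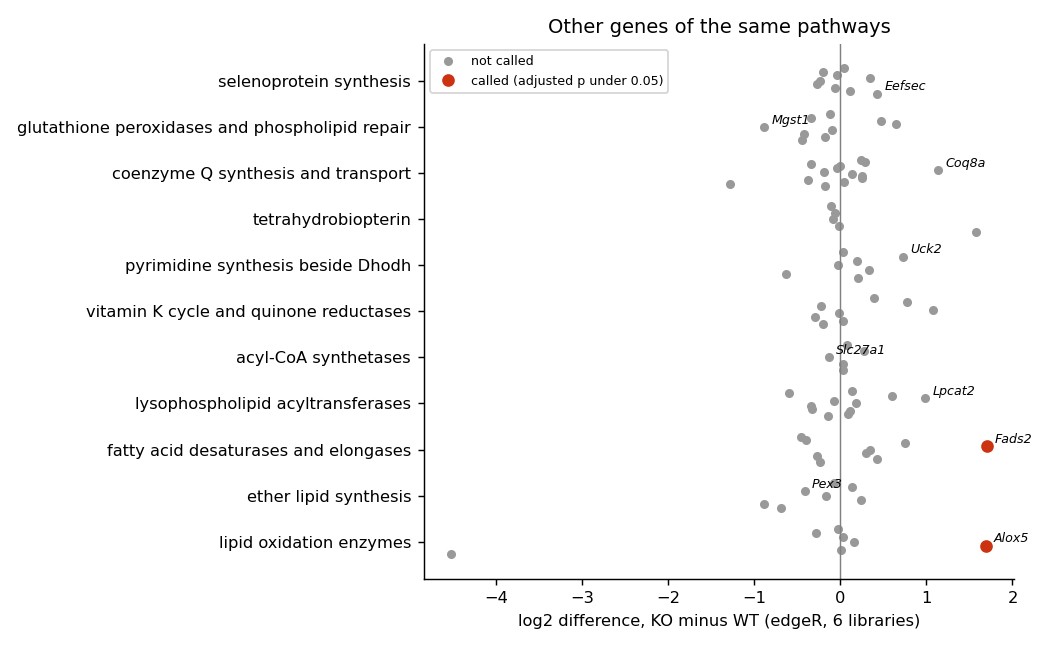
Log2 difference, KO minus WT, by edgeR over 6 libraries for the tested genes of 11 pathway lists, 1 point per gene, with called genes in red and labels on the genes with values in the text. Most points lie near 0, and Fads2 (1.71) and Alox5 (1.70) are the 2 called. The unlabelled point at -4.53 is Alox12.

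Other genes followed the same course over the 6 libraries. For Gpx4, the highest Pearson correlations of log2 CPM among 8172 genes at 10 CPM or more on average were those of Atox1, a copper chaperone (0.997), Plekhj1 (0.985) and Tomm6, a subunit of the mitochondrial import channel (0.983). For Mboat1 they were St6gal1, a sialyltransferase (0.998), Zkscan17, a zinc finger gene (0.996), and Wasf2, an actin regulator (0.995). With 6 libraries that share their depth and composition, such values are found by searching many genes and describe these libraries only.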

How the data were processed

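Poly(A)-captured RNA was sequenced on an Illumina instrument, per the labels' protocols. The submitters' processing notes name fastp 0.18.0 and the build GRCm39, but the table's chromosome accessions are those of GRCm38. Which aligner, counting program and strand setting were used is not given in the sources used here. Estimated counts per gene and library were deposited by the authors, per the file headers (4.82% to 5.49% of values not whole), which were rounded. Deposited TPM, per the file headers, served for levels per length, and deposited FPKM for their order and for library totals. The authors' deposited table also holds log2 fold changes with a p-value and a q-value from DESeq2, per the file headers.

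Genes were kept with filterByExpr (minimum count 10; 11424 of 15469 genes), and the 3 KO and 3 WT libraries were compared with the quasi-likelihood test of edgeR 4.0.16 (TMM, robust, R 4.3.3), with Benjamini-Hochberg adjustment over all genes tested. Only this edgeR fit was tested on simulated data, and the other fits were not. Other settings tried were DESeq2 1.42.0, RLE or upper-quartile factors, limma-voom (limma 3.58.1), no filter, a mean of 10 CPM, an adjusted p under 0.01, a replicate block and each library left out. A GC and length correction (mgcv 1.9.3, on 11253 genes) and limma on log2(TPM + 0.1) were added after seeing the data. The genes and lists were chosen with earlier results of these data known. All 10 genes are named, and from each list up to 3 called genes of at least 1 CPM or, with none, the gene with the smallest p. For Gpx4 and for the gene of smallest p, the 3 most correlated genes are named. Mboat2, Alox12 and Coq10b were named after their values were seen. The genes of smallest p in 2 lists are not reported here.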

Additional observations from a re-analysis of the deposited data

How the results depend on the processing

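Of the 10 genes, edgeR called 0, and the number called was 1 by DESeq2, with the GC and length correction and by limma on TPM (Mboat1 each time). It was 7 with that correction and KO replicate 1 left out, and 0 to 3 when single libraries were left out. Of the 90 pathway genes, 2 were called, against 10 by DESeq2, 1 by limma-voom, 1 with a mean of at least 10 CPM, 0 at an adjusted p under 0.01, 7 with the GC and length correction, 46 with KO replicate 1 left out as well, 6 by limma on TPM, and 0 to 45 with single libraries left out. Over all genes 379 were called, against 1344 by DESeq2, 229 with a mean of at least 10 CPM, 15 at an adjusted p under 0.01, 718 with the GC and length correction, 5983 with KO replicate 1 left out as well, 1028 by limma on TPM, and 5 to 5793 with single libraries left out. The cause of these changes was not tested.

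The log2 difference of Aifm2 reversed with the GC and length correction (-0.014, and -0.025 without KO replicate 1). That of Vkorc1l1 did so under the same settings (0.24 and 0.55), on TPM (0.033) and with a library left out (-0.29 to 0.12). That of Acsl3 did so too (0.32 and 0.55; 0.081 on TPM; -0.23 to 0.08 with a library left out). Slc27a1 reversed on TPM (0.009) and Pex3 with the correction and KO replicate 1 left out (0.021). The other 7 of the 10 genes kept their direction in all alternatives run, of which the filter at 10 CPM gave no value for Acsl3, Dhodh and Mboat1. Gpx4 ranged from -0.35 to -0.08 and Por from -0.99 to -0.46. The order of levels was the same by FPKM for all 10 genes. Acsl4 relative to Gpx4 differed by -0.67 on the log2 scale between the group means, and by -1.32 without KO replicate 1 to -0.10 without KO replicate 2. Relative to Acsl3 it differed by -0.84, and by -1.55 to -0.32 without the same libraries.

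Same-numbered libraries deviated together at r of -0.162, 0.246 and -0.271. With 3 libraries a group and KO replicate 1 apart from its group, these values cannot decide whether the numbers pair samples. With the replicate number as a block edgeR called 0 of all genes, 0 of the 10 and 0 of the pathway genes, with an adjusted p of 0.198 for Mboat1. Intervals for Acsl4 and Vkorc1l1 are wide with 3 libraries a group, and Mboat1 rests on 29 to 92 counts per library.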
